A study of Mus musculus with 8 samples.

Results

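The genes described here encode the interferon-inducible parts of the proteasome and their constitutive counterparts. There are 8: the inducible catalytic subunits Psmb8, Psmb9 and Psmb10, the activator subunits Psme1 and Psme2, and the constitutive catalytic subunits Psmb5, Psmb6 and Psmb7. They were found by gene name on the array, where 11 of 39429 probes carry one of these names, and all 11 were among the 25972 probes that passed the filter on dim values. These 25972 probes represent 20801 gene names. mRNA was measured on 8 one-color Agilent arrays of IEC10 cells, an immortalized murine intestinal epithelial cell line made from a mouse that carries firefly luciferase under the Mx2 promoter. All cells, controls included, carry this transgene and were grown on transwell inserts for 21 days to polarize. The 3 groups were left untreated (control, n = 2), stimulated with IFN-λ2 at 20 ng/mL (n = 3) or stimulated with IFN-β at 500 U/mL (n = 3), each for 9 h. The doses are in different units, and each cytokine was tested at 1 dose. The cells are a single line, and no source says whether the arrays of a group came from separate cultures, so the p-values measure the spread between these arrays, which may be technical.

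The proteasome is the protease complex that degrades ubiquitin-tagged proteins and supplies most of the peptides shown on MHC class I molecules. In its 20S core, the catalytic subunits of the resting cell are encoded by Psmb6 (β1), Psmb7 (β2) and Psmb5 (β5), and during interferon responses newly assembled cores take up Psmb9 (β1i), Psmb10 (β2i) and Psmb8 (β5i) in their place, which changes the peptides that are cut. Psme1 and Psme2 encode the α and β chains of the 11S activator, a ring that caps the core and opens its gate. Psmb8 and Psmb9 lie in the MHC region on chromosome 17 together with the peptide transporter gene Tap1, which is the 1 gene that RefSeq places between them. On chromosome 14, 1 gene, Emc9, lies between Psme1 and Psme2.

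The probes of Psmb8 and Psmb5 are shown because they were the most alike of all pairs from different members, with 31 shared bases over 50 aligned positions without gaps, which compares the probes and not the whole genes. The shared bases are in capitals, and on mm9 the array files place these probes at chr17:34337771-34337830 and chr14:55233161-55233220.
Psmb8: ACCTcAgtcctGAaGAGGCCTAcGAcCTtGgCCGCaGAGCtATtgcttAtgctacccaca
Psmb5: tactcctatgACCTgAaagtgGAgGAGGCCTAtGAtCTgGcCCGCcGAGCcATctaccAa
The probe of Psmb9, whose change was the largest among the members after either cytokine, shared 22 of 59 aligned bases with its closest probe, of Psme2, and lies at chr17:34319174-34319233 on mm9. For Psmb9, Psmb10 and Psmb6, and for the other Psmb5 probe, the closest probe was one of Psme2 and not of the partner.
Psmb9: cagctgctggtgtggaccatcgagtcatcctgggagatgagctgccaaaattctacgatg

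Promoters were read from RefSeq on GRCm38.p6 for 7 of the 8 members, all but Psmb7, as 300 bases from 250 before to 50 after the annotated start, with 2 starts for Psme2. Both strands were searched for a core of the interferon-stimulated response element (ISRE, GAAANNGAA) and for the gamma-activated site (GAS, TTCNNNGAA), and no match to one lay on a match to the other in these windows. Psmb8 held 1 GAS match, TTCCCAGAA, which began 97 bases before the start, and Psme1 held 1 ISRE match on the minus strand, TTCGCTTTC as read on the plus strand, which began 10 bases after the start. No match to these letters lay in the windows of Psmb9, Psmb10, Psme2, Psmb5 or Psmb6. Of all 32851 promoter windows of this length, 8.56% held the ISRE core and 8.3% the GAS. The windows of Psmb8 and Psme1 are shown for their matches, in capitals, and that of Psmb9 because it is shared: Psmb9 on the minus strand and Tap1 on the plus strand start 226 bases apart, and their windows overlap by 275 bases.
Psmb8, chr17:34197945-34198244, plus strand: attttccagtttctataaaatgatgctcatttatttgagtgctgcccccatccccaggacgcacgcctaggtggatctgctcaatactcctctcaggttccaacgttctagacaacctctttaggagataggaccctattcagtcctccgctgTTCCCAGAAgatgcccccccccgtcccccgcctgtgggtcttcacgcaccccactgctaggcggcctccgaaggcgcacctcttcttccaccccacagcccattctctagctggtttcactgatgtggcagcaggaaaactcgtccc
Psmb9, chr17:34187281-34187580, minus strand: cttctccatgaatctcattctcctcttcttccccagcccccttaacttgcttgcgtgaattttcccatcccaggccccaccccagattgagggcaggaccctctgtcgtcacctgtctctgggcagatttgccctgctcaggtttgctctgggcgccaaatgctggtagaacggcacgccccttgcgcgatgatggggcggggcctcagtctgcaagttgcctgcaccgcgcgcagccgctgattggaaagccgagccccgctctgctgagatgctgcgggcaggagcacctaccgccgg
Psme1, chr14:55578244-55578543, plus strand: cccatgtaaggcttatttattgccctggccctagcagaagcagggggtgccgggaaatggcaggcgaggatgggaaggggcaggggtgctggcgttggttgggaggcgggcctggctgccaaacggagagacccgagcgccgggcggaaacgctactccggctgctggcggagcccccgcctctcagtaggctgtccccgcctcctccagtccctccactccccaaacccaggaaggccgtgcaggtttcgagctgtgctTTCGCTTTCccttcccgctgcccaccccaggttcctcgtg

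Levels are given in normalized gPS units, the processed green signal of a probe scaled so that the 75th percentile of each array is 1500. Between 20992 and 24252 of the 39429 probes were well above background on each array, every member probe was so on all 8 arrays, and no probe was saturated. Of 9 markers of intestinal epithelium, 8 were well above background on all arrays, Vil1 with group means of only 48.0 to 63.9 units, and Cdx2 on none. The summed level of the epithelial list was 398256 to 399485 units on control arrays, 489068 to 515080 with IFN-λ2 and 415019 to 449945 with IFN-β. Krt18 and Krt20 made up most of this sum, with group means of 204042 and 89359 units in the control. Their means were 240364 and 147095 with IFN-λ2, and 223069 and 104395 with IFN-β. With IFN-λ2, the means of Vil1 and Cldn7 were below control, that of Cdx2 was unchanged at 15 units, and the others were above control. Of 8 immune cell markers 3 were above background on all arrays: Cd3e at group means of 156 to 182 units, Csf1r at 5170 to 6394, and Itgam at 7122 in the control, 2870 with IFN-λ2 and 6710 with IFN-β. The immune sum was 10738 to 14356, 8570 to 10834 and 9262 to 16351 units in the same order, Itgax was on no array above background, and the other 4 were on 1 or 2. Of 2 endothelial markers Pecam1 was above background on 7 arrays, at group means of 32.0 to 38.3 units, and Cdh5 on none. Of 4 fibroblast markers Col1a2 was above background on 6 arrays, Col1a1 on 4, Dcn on 1 and Pdgfra on none. The endothelial sum was 42.4 to 51.6, 48.8 to 57.0 and 45.9 to 51.1 units and the fibroblast sum 85.5 to 94.9, 77.9 to 82.2 and 81.9 to 109 units, in the same order of groups. The part of these markers in the results was not tested, and more RNA per cell and more cells that express a gene cannot be told apart in such bulk samples.

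Both cytokines were compared with control to ask which proteasome genes each induced. After IFN-λ2, all 5 inducible genes rose: Psmb9 6.12-fold, Psmb8 5.28-fold, Psmb10 3.05-fold, Psme1 1.67-fold and Psme2 1.66-fold. After IFN-β the same 5 genes were called, at 3.61-fold for Psmb9, 3.42-fold for Psmb8, 3.15-fold for Psmb10, 1.59-fold for Psme2 and 1.57-fold for Psme1. The constitutive subunits Psmb5, Psmb6 and Psmb7 were called in neither comparison. A change is called at an adjusted p under 0.05 from limma over all 25972 probes. With IFN-λ2, 5 of 8 members were called higher and 0 lower, where 10.0% of all probes were called higher and 8.55% lower. With IFN-β, 5 of 8 were higher and 0 lower, against 1.44% and 0.208% of all probes. For IFN-β, 3 members (Psmb8, Psmb9 and Psmb10) were called with the replicate number as a block, and 1 (Psmb8) when each probe was tested, with adjustment, on its own spread in the groups compared. At an unadjusted p under 0.05, limma gave 6 members higher with IFN-λ2, Psmb5 being the sixth, and 5 with IFN-β, where 17.0% and 6.97% of all probes were. It gave 0 lower with either, where 16.1% and 5.04% of all probes were. The median log2 change of the 5 inducible genes was 1.61 with IFN-λ2 and 1.66 with IFN-β, that of the 3 constitutive genes was 0.20 and 0.10, and that of all probes was 0.00083 and 0.016. Both comparisons use the same 2 control arrays.

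**Figure D1:**
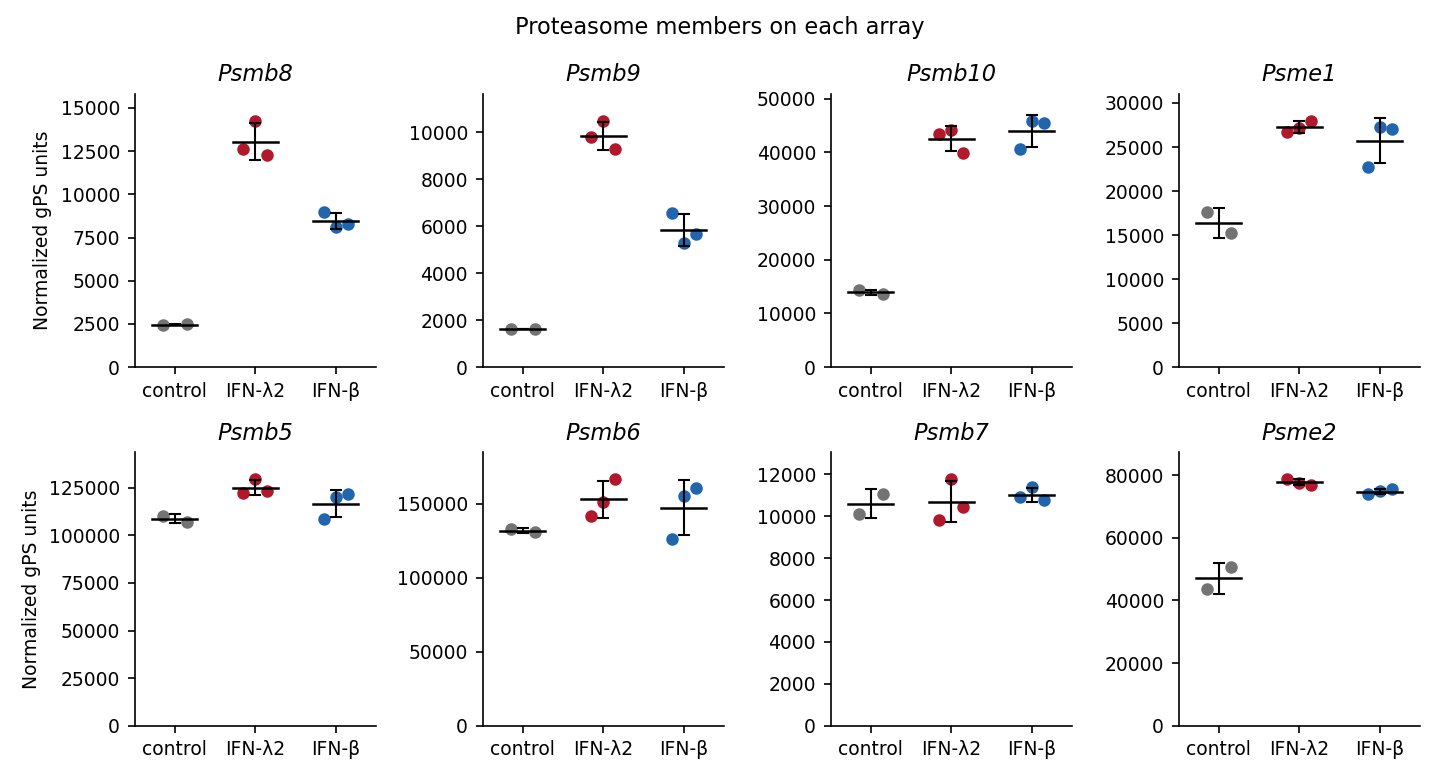
Level of each member on each array, in normalized gPS units (y axes from 0, each with its own scale), by group. Points are arrays, the long bar is the mean and the whiskers are 1 SD (n = 2 control, 3 IFN-λ2, 3 IFN-β). Psmb8 and Psmb9 form 3 separate levels, Psmb10, Psme1 and Psme2 rise to similar levels with both cytokines, and Psmb7 overlaps in all groups.

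Psmb8 encodes β5i, which carries the chymotrypsin-like activity of the induced core. Its level was 2449 and 2481 units on the control arrays, 12592, 14246 and 12300 with IFN-λ2, and 8958, 8101 and 8269 with IFN-β. The 3 groups did not overlap, in the order control, IFN-β, IFN-λ2. The log2 change from control was 2.40 with IFN-λ2 (SE 0.09, limma adjusted p = 9.38e-06) and 1.77 with IFN-β (SE 0.09, limma adjusted p = 5.59e-05). Arrays with the same replicate number shared a slide. Within the 2 slides with a control array used here, the log2 difference for IFN-λ2 was 2.54 and 2.31. For IFN-β it was 1.73 and 1.74.

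Psmb9 encodes β1i, which replaces the caspase-like subunit β1. It stood at 1607 and 1609 units in the control, at 9771, 10478 and 9291 with IFN-λ2, and at 6569, 5275 and 5649 with IFN-β. Again no array of one group reached the range of another, and the order was that of Psmb8. Its log2 change was 2.61 with IFN-λ2 (SE 0.11, limma adjusted p = 1.59e-05) and 1.85 with IFN-β (SE 0.11, limma adjusted p = 0.00012). Across the 8 arrays the log2 values of Psmb8 and Psmb9 had a Pearson r of 0.998, a description over arrays that share their treatment.

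Psmb10 encodes β2i, which carries the trypsin-like activity. Its level was 14312 and 13567 units in the control, 43498, 44179 and 39889 with IFN-λ2, and 40629, 45876 and 45497 with IFN-β. Both cytokine groups lay above the control, and they overlapped with each other. On the log2 scale the change was 1.61 with IFN-λ2 (SE 0.09, limma adjusted p = 5.75e-05) and 1.66 with IFN-β (SE 0.09, limma adjusted p = 7.12e-05). Within slides it was 1.63 and 1.56 for IFN-λ2 and 1.68 and 1.75 for IFN-β.

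Psme1, the α chain of the 11S activator, was measured by 10 copies of 1 probe. Its level was 17606 and 15214 units in the control, 26706, 27147 and 27968 with IFN-λ2, and 22743, 27328 and 27072 with IFN-β. Both cytokine groups lay above the control, with the first IFN-β array below the other 2. No control array used here came from that array's slide. Psme1 changed on the log2 scale by 0.74 with IFN-λ2 (SE 0.11, limma adjusted p = 0.005) and 0.65 with IFN-β (SE 0.11, limma adjusted p = 0.0387). The call with IFN-β was close to the threshold and was lost under 12 of 20 alternative settings, over which limma's adjusted p ranged from 0.0112 to 0.2. It was lost with the replicate number as a block (log2 change 0.70, adjusted p = 0.0882) and without any 1 of 7 of the 8 arrays, all but IFN-β replicate 1.

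Psme2, the β chain, was measured by 3 probes. The brightest gave 43497 and 50541 units in the control, 78617, 77595 and 76782 with IFN-λ2, and 73821, 74922 and 75398 with IFN-β. Every IFN-λ2 array was above every IFN-β array, and both groups were above the control. The log2 change was 0.73 with IFN-λ2 (SE 0.08, limma adjusted p = 0.00149) and 0.67 with IFN-β (SE 0.08, limma adjusted p = 0.00735). With the replicate block the IFN-β change stayed at 0.67 and its adjusted p was 0.0614, and over 20 alternatives limma's adjusted p ranged from 0.000995 to 0.0854. The second probe, at 18115 and 20207 units in the control, changed by 0.74 (adjusted p = 0.00251) and 0.70 (adjusted p = 0.0126) in limma. The third is annotated to another transcript than the first 2, and the array files place it over 219297 bases of mm9, so its value may not stand for the same mRNA. It is dim, at 79.5 and 102 units in the control, 204, 210 and 169 with IFN-λ2 and 146, 106 and 115 with IFN-β. It was called with IFN-λ2 (log2 change 1.10, limma adjusted p = 0.00714) and not with IFN-β (0.43, limma adjusted p = 0.407).

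**Figure D2:**
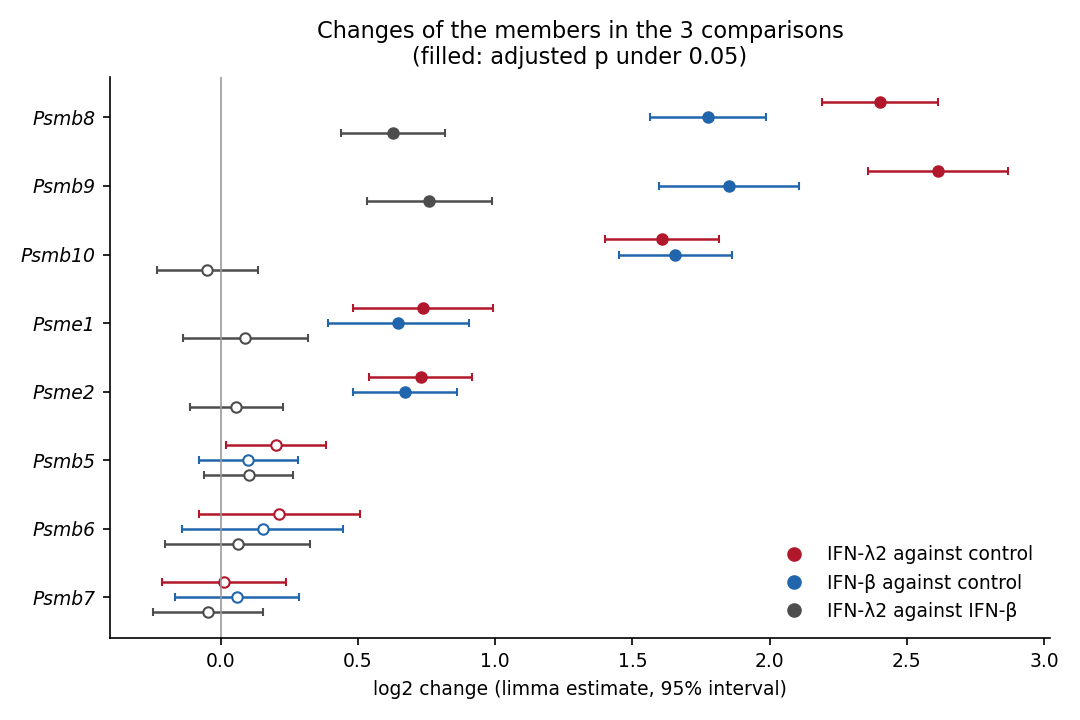
Log2 change of each member (brightest probe) in the 3 comparisons, as limma's estimate with its 95% interval. Filled points are called at an adjusted p under 0.05. The 5 inducible genes are filled in both comparisons with control, and only Psmb8 and Psmb9 are filled in the comparison of the cytokines.

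The constitutive subunits were compared in the same way, to see whether the mRNAs they share a place with moved too. Psmb5, which encodes the chymotrypsin-like β5, was at 110409 and 107156 units in the control, 122476, 129420 and 123394 with IFN-λ2, and 108775, 119902 and 121483 with IFN-β. The IFN-λ2 arrays were all above the control and the IFN-β arrays overlapped it. The log2 change was 0.20 with IFN-λ2 (95% interval 0.02 to 0.38, limma adjusted p = 0.117) and 0.10 with IFN-β (−0.08 to 0.28, limma adjusted p = 0.667). Its second probe, at 19417 and 19968 units in the control, gave 0.18 (adjusted p = 0.221) and 0.03 (adjusted p = 0.94) in limma.

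Psmb6, which encodes β1, was at 132881 and 130598 units in the control, 141800, 151033 and 166415 with IFN-λ2, and 125870, 155011 and 160852 with IFN-β. The IFN-λ2 arrays lay above the control and the IFN-β arrays on both sides of it. The log2 change was 0.21 with IFN-λ2 (95% interval −0.08 to 0.51, limma adjusted p = 0.278) and 0.15 with IFN-β (−0.14 to 0.45, limma adjusted p = 0.689). Psmb7, which encodes β2, was at 10099 and 11086 units in the control, 9846, 11763 and 10467 with IFN-λ2, and 10900, 11399 and 10756 with IFN-β. All 3 groups of Psmb7 overlapped. Its log2 change was 0.01 (−0.21 to 0.24, limma adjusted p = 0.952) and 0.06 (−0.17 to 0.28, limma adjusted p = 0.861).

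With IFN-λ2 the intervals bound a rise of Psmb5 at 1.30-fold and of Psmb7 at 1.18-fold, and with IFN-β at 1.21-fold and 1.22-fold, while those of Psmb6 are wider. In 7 of the 8 members every IFN-λ2 array was above every control array, which holds for 24.7% of all probes, and in 5 of 8 every IFN-β array was, which holds for 15.1% of all probes. Of these 6 changes 3 turned sign with the scaling: under quantile normalization the change of Psmb5 with IFN-β was −0.05, and that of Psmb7 was −0.09 with IFN-λ2 and −0.02 with IFN-β. The other 3 stayed above 0 over 20 alternatives, with lowest values of 0.064 for Psmb5 with IFN-λ2 and, for Psmb6, 0.074 with IFN-λ2 and 0.0032 with IFN-β.

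The cytokines were then compared directly, to ask whether they induced the genes to the same level at these doses. Psmb8 and Psmb9 reached higher levels after IFN-λ2 than after IFN-β, and no other member was called. Psmb8 was 1.54-fold higher (95% interval 1.35 to 1.76), a log2 difference of 0.63 (SE 0.08, limma adjusted p = 0.00429). Psmb9 was 1.69-fold higher (1.45 to 1.98), a log2 difference of 0.76 (SE 0.10, limma adjusted p = 0.00413). Both were higher on each of the 3 slides, by 0.49, 0.81 and 0.57 for Psmb8 and by 0.57, 0.99 and 0.72 for Psmb9. Thus 2 of 8 members were called higher and 0 lower, where 5.53% of all probes were called higher and 5.68% lower. At an unadjusted p under 0.05 the limma counts were also 2 and 0, where 11.7% of all probes were higher and 13.6% lower. By the brightest probe, every IFN-λ2 array was above every IFN-β array for 4 of 8 members (Psmb8, Psmb9, Psme2 and Psmb5), against 16.0% of all probes. The cytokine groups overlapped on the other Psmb5 probe and on the next brightest Psme2 probe. They did not overlap on the dim Psme2 probe. The position of an array on its slide was fixed for each group and cannot be told apart from the treatment.

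For Psmb10 the log2 difference between the cytokines was −0.05 (95% interval −0.23 to 0.14, limma adjusted p = 0.757), so a difference of more than 1.10-fold in favor of IFN-λ2 lay outside the interval. It was 0.09 for Psme1 (−0.14 to 0.32, limma adjusted p = 0.622). The brightest Psme2 probe gave 0.06 (−0.11 to 0.23, limma adjusted p = 0.685) and its second probe 0.04 (limma adjusted p = 0.799), while the dim probe gave 0.68 (limma adjusted p = 0.0389). The probe that differs is the one annotated to another transcript. The constitutive genes differed by 0.10 for Psmb5 (adjusted p = 0.409), 0.06 for Psmb6 (adjusted p = 0.789) and −0.05 for Psmb7 (adjusted p = 0.789) in limma.

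Each inducible subunit was also set against the subunit it replaces on the same array, since such a ratio does not depend on the factor that scales each array. Values are log2 ratios minus the mean of the control arrays, so they compare changes and not the amounts of 2 transcripts. For Psmb8 over Psmb5 the arrays stood at 2.18, 2.28 and 2.14 with IFN-λ2 and at 1.86, 1.58 and 1.59 with IFN-β, and the control arrays at −0.03 and 0.03. For Psmb9 over Psmb6 they stood at 2.50, 2.51 and 2.19 with IFN-λ2, at 2.10, 1.48 and 1.52 with IFN-β and at −0.01 and 0.01 in the control. In both pairs the groups did not overlap, and IFN-β replicate 1 was the IFN-β array nearest to the IFN-λ2 range. For Psmb10 over Psmb7 they stood at 1.75, 1.51 and 1.53 with IFN-λ2, at 1.50, 1.61 and 1.68 with IFN-β and at 0.11 and −0.11 in the control, with the cytokine groups interleaved.

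The mean shift of the Psmb8 over Psmb5 ratio was 2.20 ± 0.07 with IFN-λ2 and 1.67 ± 0.16 with IFN-β (SD, n = 3), or 4.59-fold and 3.19-fold. Psmb9 over Psmb6 shifted by 2.40 ± 0.18 and 1.70 ± 0.34, or 5.28-fold and 3.25-fold. Psmb10 over Psmb7 shifted by 1.60 ± 0.13 and 1.60 ± 0.09, or 3.03-fold with either. Of 9 comparisons of these ratios, 8 reached the smallest two-sided p that an exact permutation test can give with these group sizes, 0.1, which is 0.1125 after adjustment over the 9. The ninth, Psmb10 over Psmb7 between the cytokines, gave an exact permutation p of 1 for a difference of −0.0017. This test cannot go below 0.05 at these group sizes, whatever the size of the shift.

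**Figure D3:**
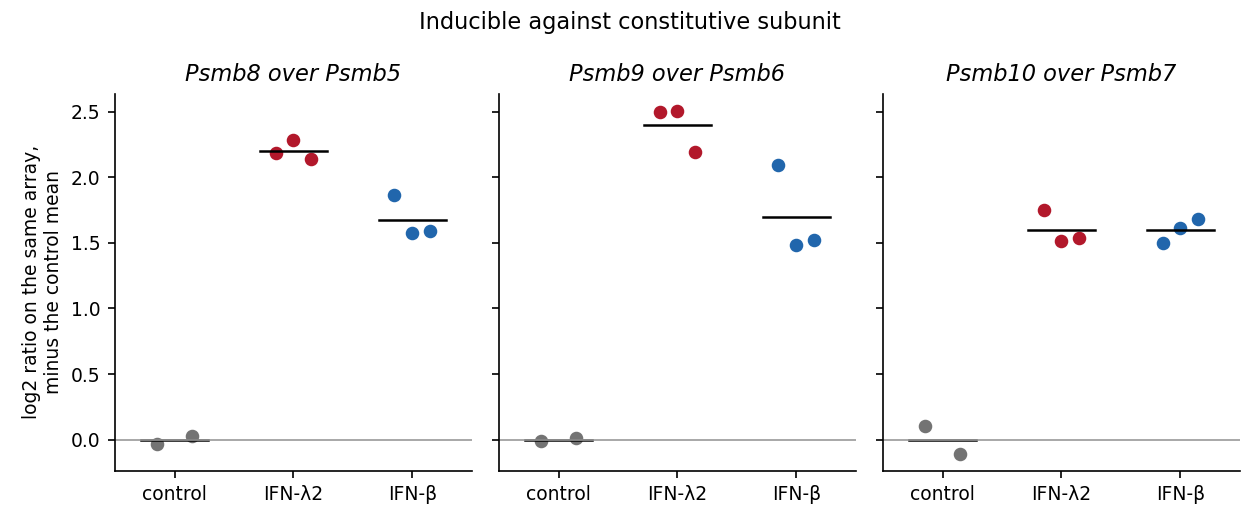
Log2 ratio of each inducible subunit over its constitutive partner on the same array, minus the mean of the 2 control arrays. Points are arrays and bars are group means. IFN-λ2 arrays lie above IFN-β arrays for Psmb8 over Psmb5 and Psmb9 over Psmb6, and the cytokine groups interleave for Psmb10 over Psmb7.

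The rest of the proteasome was measured with a list of 43 genes, of which 42 were tested. With IFN-λ2, 4 of 42 were higher and 0 lower, and the median log2 change was 0.09. Of all probes, 10.0% were called higher in this comparison and 8.55% lower. With IFN-β, and between the cytokines, 0 were called in either direction, with medians of 0.09 and 0.02. Of all probes, 1.44% and 5.53% were called higher in these comparisons and 0.208% and 5.68% lower. With no filter on dim probes, 1 of 42 was called higher in each of them. At an unadjusted p under 0.05, limma gave 8 higher and 0 lower for IFN-λ2, 6 higher and 1 lower for IFN-β, and 2 and 0 between the cytokines. The shares of all probes at that threshold are the 17.0% higher and 16.1% lower, 6.97% and 5.04%, and 11.7% and 13.6% given above. The 8 α subunits of the 20S core had 0 limma calls in either comparison with control (1 and 3 higher at an unadjusted p under 0.05), with changes of 0.01 to 0.24 with IFN-λ2 in the 7 that were above background on all arrays. The eighth, Psma8, was above background on 1 array of each group, and its 0.53 comes from a single array at 51.7 units beside 2 at the lower limit of 15. The other 4 tested β subunits also had 0, as did the 10 genes of the 19S base, where changes with IFN-λ2 ran from −0.09 to 0.28, with 1 gene of each list higher at an unadjusted p under 0.05 under IFN-λ2, and 0 under IFN-β. Psmb11, the subunit of the thymus, was too dim to test. Under quantile normalization the median of the 42 genes was −0.02 with either cytokine.

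The 4 genes called with IFN-λ2 have different roles. Psme3, which encodes a nuclear 11S activator, rose from a mean of 2892 units in the control to 4419 with IFN-λ2, a log2 change of 0.61 (SE 0.14, limma adjusted p = 0.0295), and stood at 3382 with IFN-β. Psmg4, an assembly chaperone, changed by 0.47 (SE 0.12, limma adjusted p = 0.0385). Pomp, the chaperone that is degraded inside the finished core, changed by 0.30 (SE 0.08, limma adjusted p = 0.0356), and its second probe was called too at 0.26 (limma adjusted p = 0.0403). Psmd12, a subunit of the 19S lid, changed by 0.29 (SE 0.06, limma adjusted p = 0.0191), while its second probe was not called (0.21, limma adjusted p = 0.176). These 4 calls rest on few arrays. The number fell to 1 with the replicate block, 1 with normexp, 2 with quantile normalization and 2 when only the groups compared were fitted, to 0 without control replicate 3, IFN-λ2 replicate 1 or IFN-λ2 replicate 3, to 1 without control replicate 2, and to 2 without IFN-λ2 replicate 2 or IFN-β replicate 2, and to 3 without IFN-β replicate 3. It rose to 5 with a lower threshold of 50 units, with probes well above background on all arrays of a group, in the deposited table, with no exclusion of features and with a trended variance prior.

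**Figure D4:**
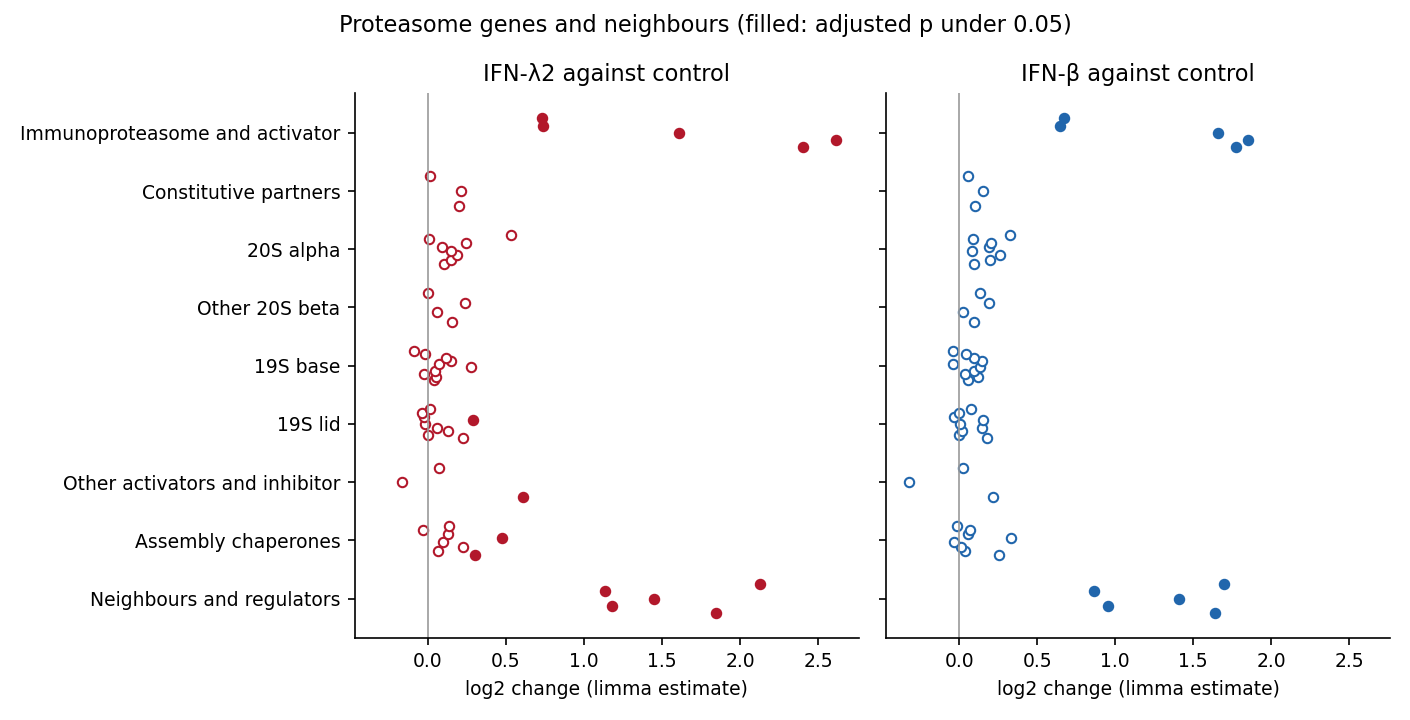
Log2 change (limma estimate) of each tested proteasome gene by group, and of the neighbours and regulators, for IFN-λ2 (left) and IFN-β (right) against control. Filled points are called at an adjusted p under 0.05. The inducible members and the 5 neighbours and regulators are filled in both panels, and the 4 further filled points on the left are Psmd12, Psme3, Psmg4 and Pomp.

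Genes that lie beside the members or act on MHC class I genes were measured as well. All 5 rose with both cytokines, where 10.0% of all probes were called higher with IFN-λ2 and 1.44% with IFN-β. With IFN-β, 4 of 5 were called when only the groups compared were fitted. Between the cytokines limma called 0 (3 higher with IFN-λ2 at an unadjusted p under 0.05), where 5.53% of all probes were called higher and 5.68% lower. That 0 became 2 higher with IFN-λ2 in the authors' deposited table, with a lower threshold of 50 units, or with a trended variance prior. It also became 2 with probes well above background on all arrays of a group. The number was 1 with quantile normalization, no filter on dim probes, no exclusion of features, or only the groups compared in the fit. Tap1, the neighbour of Psmb9, was at 484 and 586 units in the control, 1908, 2186 and 1683 with IFN-λ2, and 2012, 1525 and 1491 with IFN-β. Its cytokine groups overlapped, unlike those of Psmb9, and its log2 change was 1.85 with IFN-λ2 (SE 0.17, limma adjusted p = 0.000786) and 1.64 with IFN-β (SE 0.17, limma adjusted p = 0.00396). Whether Tap1 and Psmb9 differed in their response was not tested. Tap2, the other chain of the transporter, changed by 1.18 and 0.95, and Tapbp, which links the transporter to MHC class I, by 1.45 and 1.41.

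Among the regulators, Irf1, a transcription factor that acts on promoters of immunoproteasome genes, changed by 1.13 with IFN-λ2 and 0.86 with IFN-β on the log2 scale, and its difference between the cytokines of 0.27 had an adjusted p of 0.0508 in limma. Its second probe, with group means of at most 36.8 units, was not called with IFN-λ2 (0.89, limma adjusted p = 0.0547) or IFN-β (0.95, limma adjusted p = 0.189), and gave −0.06 between the cytokines (limma adjusted p = 0.908). Nlrc5, a transactivator of MHC class I genes, changed by 2.13 and 1.70, with a difference of 0.43 (limma adjusted p = 0.0502). A second, dim probe of Nlrc5 changed by 0.83 with IFN-λ2 (limma adjusted p = 0.0043). With IFN-β it changed by 1.30 (limma adjusted p = 0.00162). Between the cytokines this probe went the other way, by −0.47 (limma adjusted p = 0.034). Its mean was 49.6 units with IFN-λ2 and 68.4 with IFN-β.

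The genes whose log2 values ran most like those of each called member over the 8 arrays were taken from 17899 probes above background on all arrays, with the probes of the members themselves left out. They are a description over arrays that share treatments. For Psmb8 they were Iigp1 (Pearson r 0.998), Ran and Gm4951 (both 0.997), and for Psmb9 Iigp1, Slfn2 (both 0.997) and Spink2 (0.995). Iigp1, an interferon-inducible GTPase, changed by 2.86 with IFN-λ2 and 1.99 with IFN-β, while Ran, a GTPase of nuclear transport, changed by only 0.38 and 0.30. For Psmb10 they were Shisa5 (0.999), Parp10 (0.998) and Trex1 (0.997), whose changes differed between the cytokines by −0.10 to 0.005. For Psme1 they were Mlkl (0.995), the chaperone gene Pomp (0.993) and Rps10 (0.987), and for Psme2 Gm7928 (0.995), Trim12a (0.993) and Lgals3bp (0.991). Among the members themselves, Psmb7 had an r between 0.105 and 0.227 with each of the others, and Psme1 and Psme2 had one of 0.914 with each other.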

How the data were processed

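RNA of 8 samples was hybridized to one-color Agilent arrays. The authors extracted the scanned signals with Feature Extraction 10.7.3.1 (submitters' processing notes) and deposited the background-subtracted intensity of every feature, unscaled, and a value table of linear intensities with no value below 15. The values made here equaled the deposited ones times 1 constant per array, between 1.08 and 1.10, with Psme1 at 0.993 and 0.995 of that on 2 arrays.

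Following the methods, features flagged, marked as outliers, outside 1.42 times the interquartile range of their copies or with a pixel coefficient of variation above 0.5 were left out, copies of a probe were combined by geometric mean, each array's 75th percentile was set to 1500, values below 15 were set to 15, and log2 was taken. Probes above 15 on at least 2 arrays were tested. limma 3.58.1 (R 4.3.3) fitted the 3 group means on the 8 arrays, with Benjamini-Hochberg adjustment at 0.05, and tested on simulated data. The brightest probe stands for a gene. Probes were named by RefSeq accession (26406), symbol (3859), synonym (735) or array design (8429). Tables used Python 3.11.15, numpy 2.4.6 and pandas 2.3.3.

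Samples were grouped by their labels, whose control group begins at replicate 2 (a replicate 1 is not used here). Each slide carried the arrays of a single replicate number. Deviations from the group means of same-numbered arrays correlated at 0.178, 0.255 and 0.297 for IFN-λ2 with IFN-β. With control, same-numbered arrays correlated at −0.057 to 0.101. Same-numbered arrays shared a slide, so slide and culture cannot be told apart, and pairing was not tested. The block is an alternative and is given where it changes a call.

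The members, lists and tests were chosen with earlier results of these data known. All members were named with every probe. Of other proteasome genes up to 5 called per comparison were named, and 5 neighbours and regulators and the 3 most similar genes per called member in any case; 1 listed gene is not reported here. The 15 kinds of alternatives covered background correction, scaling, thresholds, filters, the deposited table, feature exclusion, the block, single arrays, probe choice, fitted groups, variance prior, a plain t-test and a minimum fold. The number of arrays limits the precision.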

Additional observations from a re-analysis of the deposited data

How the results depend on the processing

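Over the alternatives tried, Psmb8, Psmb9 and Psmb10 stayed called against control with both cytokines, as did Psme1 and Psme2 with IFN-λ2, in each of 20 refits. Psmb8 and Psmb9 stayed called between the cytokines, at log2 differences of 0.56 to 0.67 and 0.69 to 0.85. With a minimum fold of 2, 3 members were higher with IFN-λ2, 3 with IFN-β and 0 between the cytokines. A plain t-test at the methods' p of 0.001 and fold for 2 groups gave the same member counts. The methods do not name their test, and their further limit on q was not applied to these t-test counts. The t-test after Benjamini-Hochberg adjustment left 1 member, Psmb8, higher with IFN-β. Member counts with IFN-β were also 3 with the replicate block and 3 when only the groups compared were fitted.

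The IFN-β change of Psme1 lost its call with normexp (0.65), no filter on dim probes (0.65), no exclusion of features (0.65), the replicate block (0.70) and only the groups compared (0.65), and ran from 0.54 to 0.75 without single arrays. That of Psme2 lost it with the block (0.67) and with only the groups compared (0.67). Leaving out a control leaves 1, which is assumed to vary like the other groups. The cause was not tested.

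Changes of sign arose among values near 0. Psmb5 with IFN-β was −0.046 under quantile normalization. Psmb7 with IFN-λ2 was −0.062 with normexp, −0.087 with quantile normalization and −0.060 to 0.078 without single arrays. Psmb7 with IFN-β was −0.020 with quantile normalization and −0.0092 to 0.125 without single arrays. Between the cytokines, single arrays moved Psmb7 from −0.118 to 0.011, Psmb6 from −0.048 to 0.129 and Psmb10 over Psmb7 from −0.076 to 0.041, and normexp gave 0.0016 for that ratio.

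Counts over the array moved more. With IFN-λ2, 2604 probes were higher and 2220 lower, and normexp gave 1496 and 642, the t-test 302 and 63 (983 and 635 after adjustment), a minimum fold of 2 694 and 308, and single arrays 1437 to 2755 and 1146 to 2401. Normexp also moved the median of all probes in that comparison to 0.11. With IFN-β, 374 were higher and 54 lower: only the groups compared gave 232 and 8, the t-test 156 and 3 (84 and 16 after adjustment) and a minimum fold 229 and 8. The lower count was 6 with normexp, 35 with no lower threshold, 88 with a threshold of 50, 12 with the replicate block and 16 to 97 without single arrays. Between the cytokines 1436 were higher and 1476 lower: the t-test gave 199 and 84, a minimum fold 374 and 201, and single arrays 799 to 1362 and 683 to 1466. The lower count was 392 with normexp and 793 by the t-test after adjustment. The replicate block ended no member's call other than those of Psme1 and Psme2 with IFN-β. The third probe of Psme2 is dim but well above background on all 8 arrays, while the second of Irf1 and that of Psma8 lie near the lower limit of 15 units.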

Other observations

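Genes that act on the proteasome from outside the complex were measured with the same fit. Usp14 and Uchl5, the deubiquitinases that trim chains at the 19S particle, changed by 0.17 and 0.11 on the log2 scale with IFN-λ2 (limma adjusted p = 0.364 and 0.431) and by 0.21 and 0.06 with IFN-β (limma adjusted p = 0.559 and 0.838). Nfe2l1, a transcription factor that raises proteasome genes when the proteasome is inhibited, changed by 0.02 and −0.11 (limma adjusted p = 0.891 and 0.71). Ubd, which encodes the ubiquitin-like modifier FAT10, was too dim to be tested on these arrays.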
